A study of Mus musculus with 6 samples.

Results

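Protein tyrosine phosphatases remove phosphate from tyrosine residues and set the threshold of T-cell receptor and cytokine signalling. Here 9 genes of this family (Ptpn2, Ptpn5, Ptpn6, Ptpn7, Ptpn11, Ptpn22, Ptprc, Ptpre and Ptprj) were followed by symbol among 23284 genes in RNA-sequencing counts of sorted CD8 T cells. The set was selected on these counts, since those of Ptpn5 were almost all in one of the sorted populations, so the differences of these 9 genes between the populations are given as a description, with no p-value. The 2 populations were NKG2D+ cells, sorted as CD3+CD8+CD44+CXCR3+NKG2D+, and NKG2D- cells, sorted with the same markers but without NKG2D, each with 3 libraries. Both came from lymph nodes of 3 C3H/HeJ mice, and libraries with the same number were treated as coming from the same mouse. C3H/HeJ is an inbred strain in which the autoimmune hair loss disease alopecia areata can arise. No treatment, age or disease state is given in the sources used here. CD44 and CXCR3 on the surface mark antigen-experienced T cells, and NKG2D is an activating receptor encoded by Klrk1.

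The family has receptor-type members, which span the membrane, and non-receptor members inside the cell. In T cells CD45, the product of Ptprc, removes the inhibitory phosphate from the kinase Lck and so makes receptor signalling possible, while PTPN22 acts with the kinase Csk to switch Src-family kinases off. SHP-1 and SHP-2, the products of Ptpn6 and Ptpn11, are drawn by their SH2 domains to phosphorylated tails of inhibitory receptors and adaptors. PTPN2 acts on JAK and STAT proteins, and PTPN7 and PTPN5 bind and inactivate ERK and p38 MAP kinases. PTPN5, also called STEP, is known above all from neurons of the striatum, where it also acts on Fyn, Pyk2 and the glutamate receptor subunit GluN2B.

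All members share a catalytic cysteine in a short active-site signature. The coding sequence of that signature is shown because it is the part by which these genes belong together, and it shows how far their letters differ. Each line gives 24 bases of the coding strand from the GENCODE M21 transcripts (GRCm38), 5′ to 3′. The codon of the cysteine of the signature is in capitals, and the sequence of Ptpn2 is not shown. Whether both matches of Ptpre are catalytic was not tested.
Ptpn5: cacTGCagtgcagggattgggaga
Ptpn7: cacTGCagtgcagggatcggccgg
Ptpn11: cacTGCagcgctgggattggccgg
Ptpn6: catTGCagcgctggcatcggccgc
Ptpn22: cacTGCagtgccggctgcggaagg
Ptprc: cacTGCagtgctggtgttgggcgt
Ptprj: catTGCagtgctggggttggaagg
Ptpre, first match: cacTGTagcgcgggcgtgggtcgg
Ptpre, second match: cacTGCagcgcgggagcagggcgg
The stretch of Ptpn7 equals that of Ptpn5 at 20 of 24 bases, that of Ptpn11, Ptprc and Ptprj at 19, that of Ptpn22 at 17, that of Ptpn6 at 16, and the 2 stretches of Ptpre at 15 and 16. Ptpre had 2 matches and each of the other genes shown had 1. The signature spans 8 codons and was searched on the coding strand only. It was found in frame in 37 of 37 classical phosphatase genes with an annotated protein-coding transcript and in 0.530% of all 21877 protein-coding genes.

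The libraries held 41168816 to 89184611 counts in genes. Klrk1 stood at 409, 312 and 342 CPM, counts scaled to library size, in libraries 1, 2 and 3 of NKG2D+ cells, against 34.5, 37.1 and 36.1 CPM in NKG2D- libraries 1, 2 and 3. The difference followed the sort, which used the product of this gene, so its direction was set in advance. The two-sided exact permutation p was 0.1, the smallest that 3 against 3 allows. Libraries were permuted without regard to mouse. Of 5 listed CD8 T-cell markers, 3 averaged higher in NKG2D+ cells (mean and SD, n = 3 each). Cd3e averaged 452 ± 46.1 CPM in NKG2D+ cells and 428 ± 34.4 CPM in NKG2D- cells. Cd8a averaged 1418 ± 447 CPM in NKG2D+ cells and 1210 ± 20.4 CPM in NKG2D- cells, and Cd3g 612 ± 229 and 425 ± 27.6 CPM. Cd3d was lower, at 330 ± 3.02 CPM in NKG2D+ cells and 373 ± 22.1 CPM in NKG2D- cells. So was the mean of Cd8b1, at 814 ± 236 CPM in NKG2D+ cells and 862 ± 61.2 CPM in NKG2D- cells. The gate gene Cd44 stood at 430, 177 and 224 CPM in libraries 1, 2 and 3 of NKG2D+ cells. In NKG2D- libraries 1, 2 and 3 it stood at 137, 136 and 133 CPM. Cxcr3 averaged 299 ± 50.7 CPM in NKG2D+ cells and 261 ± 20.5 CPM in NKG2D- cells (SD, n = 3 each). The populations thus differed in Cd44 transcripts as well as in Klrk1. Transcripts of B-cell markers were present too. All 11 listed B-cell markers averaged higher in NKG2D+ cells and none was at 0, with summed levels of 213 to 500 CPM in NKG2D+ libraries and 56.9 to 190 CPM in NKG2D- libraries. The 10 myeloid and dendritic markers in the files, of which 6 averaged higher in NKG2D+ cells and none was at 0, summed to 13.4 to 20.6 CPM in NKG2D+ libraries and 10.7 to 11.0 CPM in NKG2D- libraries. The 4 plasma cell markers in the files, of which 3 averaged higher in NKG2D+ cells, summed to 38.2 to 78.8 CPM in NKG2D+ libraries and 33.6 to 38.2 CPM in NKG2D- libraries. Most of this sum was 1 gene, Xbp1, named after its values were seen. It averaged 54.8 ± 20.4 CPM in NKG2D+ cells and 33.9 ± 3.04 CPM in NKG2D- cells (SD, n = 3 each). Of the 3 CD4 and regulatory T-cell markers 1 averaged higher in NKG2D+ cells. They summed to 40.9 to 75.5 CPM in NKG2D+ libraries and 46.4 to 53.9 CPM in NKG2D- libraries. Foxp3, named after its values were seen, was lower in every NKG2D+ library than in any NKG2D- library. It averaged 4.88 ± 2.41 CPM in NKG2D+ cells and 17.1 ± 3.32 CPM in NKG2D- cells (SD, n = 3 each). In such bulk libraries fewer cells of a type and less RNA per cell cannot be told apart.

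Ptpn5 was a low-level transcript held almost wholly by NKG2D+ cells. It stood at 3.85, 3.80 and 3.54 CPM in NKG2D+ libraries 1, 2 and 3, from 253, 340 and 273 counts. In NKG2D- libraries 1, 2 and 3 it stood at 0.327, 0.338 and 0.390 CPM, from 13, 20 and 25 counts. All 3 NKG2D+ libraries lay near each other and far above every NKG2D- library. The 95% exact Poisson intervals, which cover counting error only, ran from 3.13 to 4.35 CPM over the NKG2D+ libraries and from 0.174 to 0.576 CPM over the NKG2D- libraries. The ratio of means was 10.6, and the log2 fold change, always NKG2D+ over NKG2D- cells, was 3.39 (SE 0.20). Within mice 1, 2 and 3 the ratio was 11.8, 11.2 and 9.07.

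**Figure D1:**
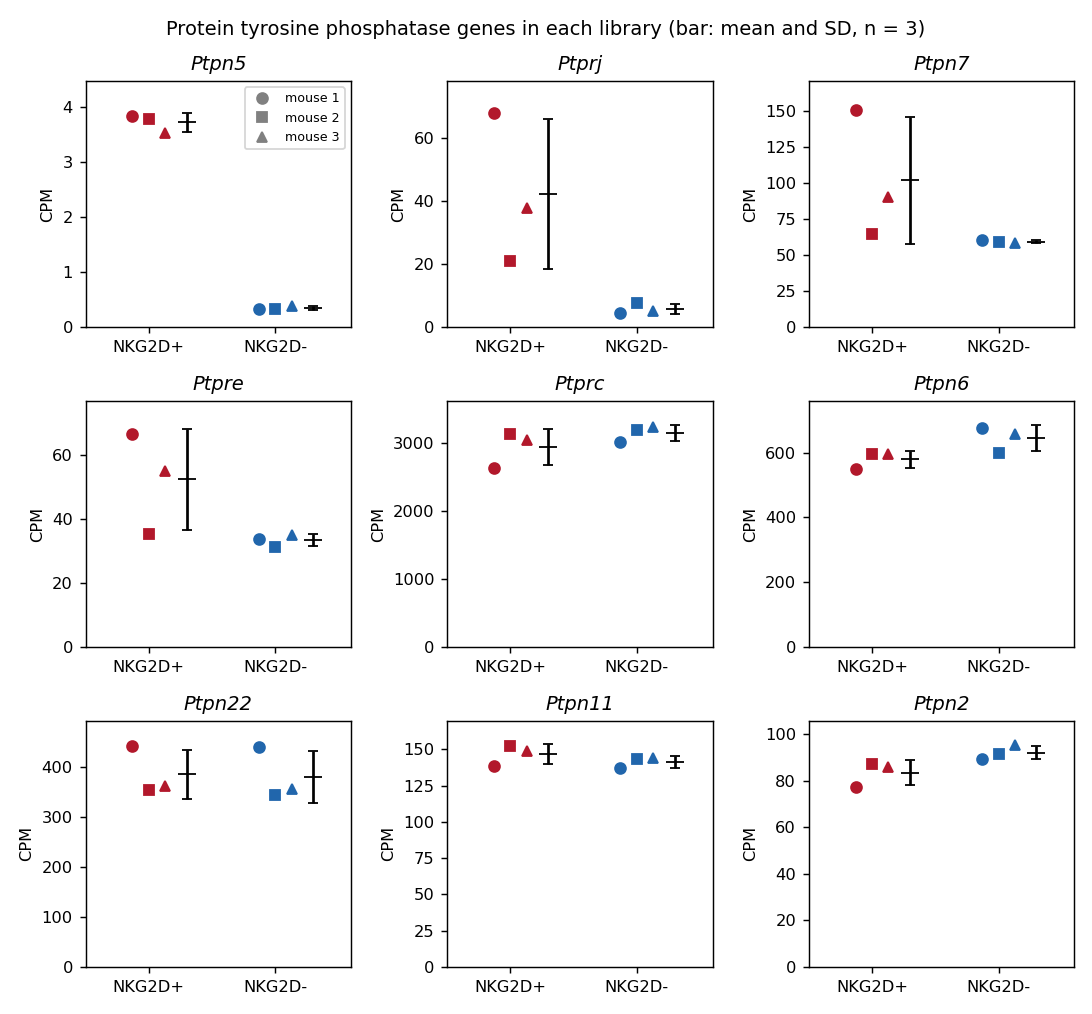
Level of each of the 9 phosphatase genes in CPM (linear axes from 0) in the NKG2D+ and NKG2D- libraries, 1 symbol per mouse, with the mean and SD of 3 libraries beside them. Ptpn5 stands at 3.54 to 3.85 CPM in NKG2D+ and at 0.327 to 0.390 CPM in NKG2D- libraries, while the NKG2D+ libraries of Ptprj, Ptpn7 and Ptpre are spread widely.

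NKG2D+ libraries agreed closely on Ptpn5. Their coefficient of variation was 4.49%, against a median of 11.9% over all genes tested in the same libraries. It was 4.47% for Ptpn6 and 4.75% for Ptpn11. In NKG2D- libraries that of Ptpn5 was 9.49%, where the median of all genes was 8.10%. Each level of Ptpn5 lay within the Poisson interval of every other library of its population. Such spreads cannot be told from counting error. The level left in NKG2D- cells was 9.44% of that in NKG2D+ cells, beside 10.1% for Klrk1. Neuronal markers were near 0, with the 7 genes of that list in the files summing to 0.894 to 1.66 CPM in NKG2D+ libraries and 0.983 to 1.42 CPM in NKG2D- libraries. Of these 7 genes 3 averaged higher in NKG2D+ cells. Among them was Nefl, named after its values were seen. It had 25, 3 and 18 counts in NKG2D+ libraries 1, 2 and 3 and 1 count in each NKG2D- library. No 50-base stretch of the Ptpn5 coding transcripts occurs in a GENCODE M21 transcript of another gene, and none of their exons overlaps an exon of another gene.

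Klrk1, among 9627 genes that averaged 5 CPM or more in one of the populations, had the pattern most like that of Ptpn5 over the 6 libraries. Its Pearson r of log2 CPM was 0.997, and it was followed by Ncald at 0.996, Ctla2a at 0.993, Arhgap11a at 0.990 and Plekhg3 at 0.989. The value was 0.9 or more for 344 genes, and the 6 libraries fall into 2 populations that share mice. Ptpn5 was chosen on the difference between these populations and Klrk1 encodes the sort marker. A high r between them was therefore set in advance, and no link between the genes is read from it. Ncald, which encodes the calcium sensor neurocalcin delta, averaged 10.2 ± 0.820 CPM in NKG2D+ cells and 3.00 ± 0.322 CPM in NKG2D- cells. Ctla2a, which encodes a cysteine protease inhibitor, averaged 179 ± 8.61 CPM in NKG2D+ cells and 87.7 ± 4.59 CPM in NKG2D- cells (SD, n = 3 each).

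Ptprj, which encodes the receptor-type phosphatase CD148 that acts on Src-family kinases, was also higher in NKG2D+ cells, but unevenly. It stood at 67.7, 21.1 and 37.7 CPM in libraries 1, 2 and 3 of NKG2D+ cells, against 4.63, 7.73 and 5.12 CPM in NKG2D- libraries 1, 2 and 3. The populations did not overlap, yet the highest NKG2D+ library had over 3 times the level of the lowest. The log2 fold change was 2.85 (SE 0.45), 2.33 without NKG2D+ library 1 and 2.19 without both libraries of mouse 1, 3.17 without NKG2D+ library 2 and 3.44 without both libraries of mouse 2. Within mice 1, 2 and 3 the ratio was 14.6, 2.73 and 7.37. The ratio of the B-cell marker sums was 8.79, 1.12 and 1.85 in the same mice, and both ratios were highest in mouse 1 and lowest in mouse 2. The part of B cells in the Ptprj difference was not tested. Of the 50-base stretches of Ptprj transcripts, 9.77% occur in transcripts of other genes (Gm13767, Gm13768 and Gm18953), so its level is less certain than that of Ptpn5.

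Ptpn7 and Ptpre showed smaller differences with the same mouse on top. Ptpn7, which encodes the haematopoietic MAP kinase phosphatase HePTP, stood at 151, 64.8 and 90.7 CPM in libraries 1, 2 and 3 of NKG2D+ cells, against 60.6, 59.3 and 58.2 CPM in NKG2D- libraries 1, 2 and 3. Every NKG2D+ library was above every NKG2D- library, library 2 by little. Its log2 fold change was 0.78 (SE 0.28) and 0.39 without NKG2D+ library 1. Ptpre, which encodes a phosphatase made in a receptor form and a cytosolic form, stood at 66.4, 35.4 and 54.9 CPM in libraries 1, 2 and 3 of NKG2D+ cells, against 33.8, 31.2 and 35.0 CPM in NKG2D- libraries 1, 2 and 3. Here too library 2 was only just above the NKG2D- range. For Ptpre the log2 fold change was 0.65 (SE 0.21), and 0.44 without NKG2D+ library 1. The coefficient of variation in NKG2D+ libraries was 43.2% for Ptpn7, 30.0% for Ptpre and 56.1% for Ptprj, while in NKG2D- libraries it was 1.95%, 5.81% and 28.6%. In NKG2D+ library 1, where all 3 genes were highest, the sums of B-cell and myeloid markers were highest too, at 500 and 20.6 CPM. So was the plasma cell sum, at 78.8 CPM, which was mostly Xbp1. The sum of 5 CD8 T-cell markers (Cd3d, Cd3e, Cd3g, Cd8a and Cd8b1) was also highest there. It was 4709 CPM, against 3057 and 3112 CPM in NKG2D+ libraries 2 and 3. The part of any of these cells in the differences was not tested. Exons of Ptpre overlap those of 5830432E09Rik on the opposite strand, and the strand setting of the counts is not known.

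**Figure D2:**
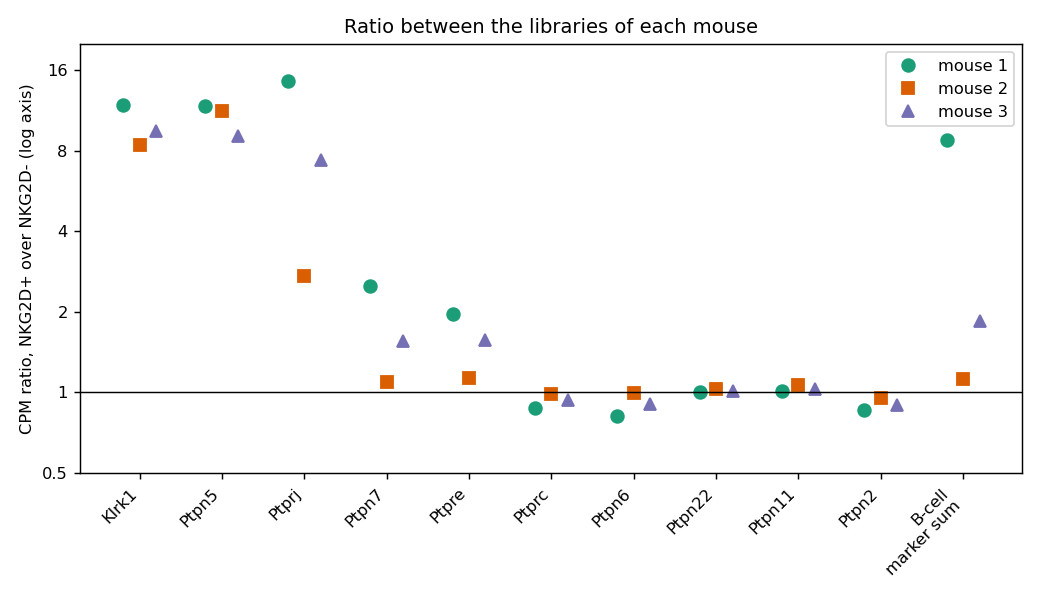
CPM ratio of the NKG2D+ library over the NKG2D- library of the same mouse (log axis) for Klrk1, the 9 phosphatase genes and the sum of 11 B-cell markers, 1 symbol per mouse. Ptpn5 lies at 9.07 to 11.8 in all 3 mice, Ptprj spreads from 2.73 to 14.6, and Ptprc, Ptpn6, Ptpn22, Ptpn11 and Ptpn2 lie close to 1.

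The phosphatases of the proximal receptor pathway and of cytokine signalling were at similar levels in both populations. Ptprc stood at 2641, 3139 and 3045 CPM in libraries 1, 2 and 3 of NKG2D+ cells, against 3018, 3189 and 3238 CPM in those of NKG2D- cells. The populations overlapped, and the log2 fold change was -0.098 (SE 0.10). Ptpn22 stood at 443, 354 and 362 CPM in libraries 1, 2 and 3 of NKG2D+ cells, against 440, 344 and 357 CPM in those of NKG2D- cells. Mouse 1 was the highest in both populations, and the ratio within mice 1, 2 and 3 was 1.01, 1.03 and 1.02. The log2 fold change was 0.024 (SE 0.13), with a sign that changed between -0.084 and 0.14 as single libraries were left out.

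Of the SH2-domain phosphatases, Ptpn6 stood at 550, 594 and 595 CPM in libraries 1, 2 and 3 of NKG2D+ cells, against 676, 599 and 656 CPM in those of NKG2D- cells. The NKG2D+ libraries all lay below the NKG2D- libraries, by less than 1% in mouse 2, where the ratio was 0.992. The log2 fold change was -0.15 (SE 0.079). Its transcripts share 5.31% of their 50-base stretches with the antisense gene Gm20531. Ptpn11 stood at 139, 152 and 149 CPM in libraries 1, 2 and 3 of NKG2D+ cells, against 137, 143 and 144 CPM in those of NKG2D- cells, with overlapping ranges and a log2 fold change of 0.053 (SE 0.065). Ptpn2 stood at 77.2, 87.2 and 85.7 CPM in libraries 1, 2 and 3 of NKG2D+ cells, against 89.5, 91.5 and 95.3 CPM in NKG2D- libraries 1, 2 and 3. It was lower in NKG2D+ cells in all 3 mice, with ratios of 0.862, 0.953 and 0.899 and a log2 fold change of -0.14 (SE 0.072). With plain library totals as the scaling, the log2 fold change was -0.062 for Ptpn2 and -0.067 for Ptpn6. The size of both small differences thus depended on the scaling.

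All 9 members passed the filter on low counts. By edgeR's quasi-likelihood test 2 of them passed an adjusted p of 0.05, where 2.02% of the 12951 genes tested did. The set was chosen on this same contrast, so such calls are no test of it. The count was 4 with DESeq2, beside 1442 of all 12951 genes tested. It was 4 without NKG2D+ library 2, beside 1312 of 13178. It was 1 with limma-voom (83 over all genes), with no filter (234) and with the mouse as a block (68). It was also 1 without NKG2D+ library 3 (15 over all genes) and without NKG2D- library 1, 2 or 3 (21, 13 and 8). Without mouse 1 it was 1, beside 229 of 13100. Without mouse 3 it was 0, beside 0 over all genes. There 2 members had an unadjusted p under 0.05 by edgeR, beside 971 of 12964 genes. The ranges of the 2 populations did not overlap for 6 of the 9, with 4 higher and 2 lower in NKG2D+ cells, where 29.1% of all genes tested did not overlap. The median log2 fold change was 0.053 over the 9 genes and -0.014 over all genes tested. Because the genes were brought together by this same difference, nothing is read from these counts.

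Levels between genes were compared per kilobase of exon. In NKG2D+ cells the order was Ptprc at 575 ± 51.7, Ptpn6 at 217 ± 9.70, Ptpn22 at 141 ± 17.9, Ptpn7 at 29.7 ± 12.8, Ptpn2 at 27.5 ± 1.79, Ptpn11 at 26.1 ± 1.24, Ptpre at 8.65 ± 2.60, Ptprj at 5.11 ± 2.86 and Ptpn5 at 1.04 ± 0.0468 CPM per kilobase (SD, n = 3). In NKG2D- cells it was Ptprc at 615 ± 22.6, Ptpn6 at 241 ± 14.96, Ptpn22 at 139 ± 19.1, Ptpn2 at 30.4 ± 0.966, Ptpn11 at 25.2 ± 0.690, Ptpn7 at 17.3 ± 0.338, Ptpre at 5.52 ± 0.321, Ptprj at 0.706 ± 0.202 and Ptpn5 at 0.0984 ± 0.00934 CPM per kilobase (SD, n = 3). In NKG2D- cells no neighbours in this order overlapped. In NKG2D+ cells Ptpn7, Ptpn2 and Ptpn11 overlapped one another, and so did Ptpre and Ptprj. With the longest transcript as the length, Ptpn2 no longer overlapped Ptpn11 in NKG2D+ cells. Ptpn5 was thus the lowest of the 9 in both populations, and among the 37 phosphatase genes with a length it ranked 19 in NKG2D+ and 21 in NKG2D- cells.

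**Figure D3:**
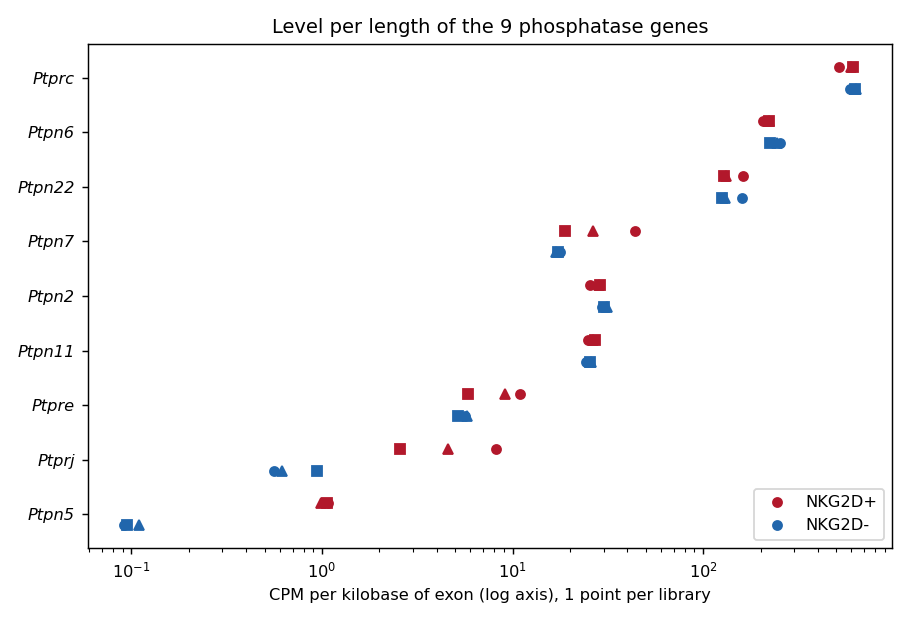
Level of the 9 phosphatase genes in CPM per kilobase of exon (log axis), 1 point per library, with NKG2D+ libraries above NKG2D- libraries for each gene and mouse 1, 2 and 3 as circle, square and triangle. Ptprc leads at 516 to 613 in NKG2D+ libraries and Ptpn5 is last at 0.989 to 1.08 in NKG2D+ libraries.

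Summed over the 38 classical phosphatase genes in the files, the level was 5155 ± 158 CPM in NKG2D+ cells and 5276 ± 64.4 CPM in NKG2D- cells (SD, n = 3 each). The 9 members held 84.1% ± 0.829 of these counts in NKG2D+ and 85.4% ± 0.367 in NKG2D- cells. Ptprc alone held 57.0% ± 3.43 and 59.7% ± 1.84. Ptpn5 held 0.0724% ± 0.00481 in NKG2D+ and 0.00666% ± 0.000550 in NKG2D- cells. The large relative difference of Ptpn5 was therefore a small part of the phosphatase transcripts of either population.

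Of the 29 other classical phosphatase genes, 17 were tested, and the other 12 had at most 14 counts in any library. Among 7 receptor-type genes 1 rose, where 1.65% of all genes tested rose and 0.363% fell, and the median log2 fold change was 0.064. This was Ptprv, known in mice from bone and testis, at 69.9, 51.8 and 61.0 CPM in libraries 1, 2 and 3 of NKG2D+ cells, against 30.6, 35.1 and 33.5 CPM in NKG2D- libraries 1, 2 and 3. Ptprv had a log2 fold change of 0.88 (SE 0.12, adjusted p = 0.0248 by edgeR, and 0.0806 with the mouse as a block). Among 10 non-receptor genes 1 rose, with a median of -0.0024. This was Ptpn13, a large phosphatase with PDZ domains, at 33.0, 18.6 and 28.9 CPM in libraries 1, 2 and 3 of NKG2D+ cells, against 8.74, 10.1 and 9.05 CPM in NKG2D- libraries 1, 2 and 3. Ptpn13 had a log2 fold change of 1.53 (SE 0.21, adjusted p = 0.0257 by edgeR, and 0.0806 with the block). Both calls were lost when single libraries were left out, with edgeR adjusted p of 0.108 for each without NKG2D+ library 3 and 0.554 for each without both libraries of mouse 3, and that of Ptpn13 was 0.0509 without mouse 1. Without NKG2D- libraries 1, 2 and 3 it was 0.155, 0.112 and 0.158 for Ptprv and 0.157, 0.117 and 0.163 for Ptpn13. Ptpn3, named after its values were seen, stood at 6.24, 0.648 and 1.14 CPM in libraries 1, 2 and 3 of NKG2D+ cells, against 0.428, 0.287 and 0.343 CPM in NKG2D- libraries 1, 2 and 3. NKG2D+ library 1 held most of the difference, and the log2 fold change was 2.92 (SE 0.90, adjusted p = 0.137 by edgeR).

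**Figure D4:**
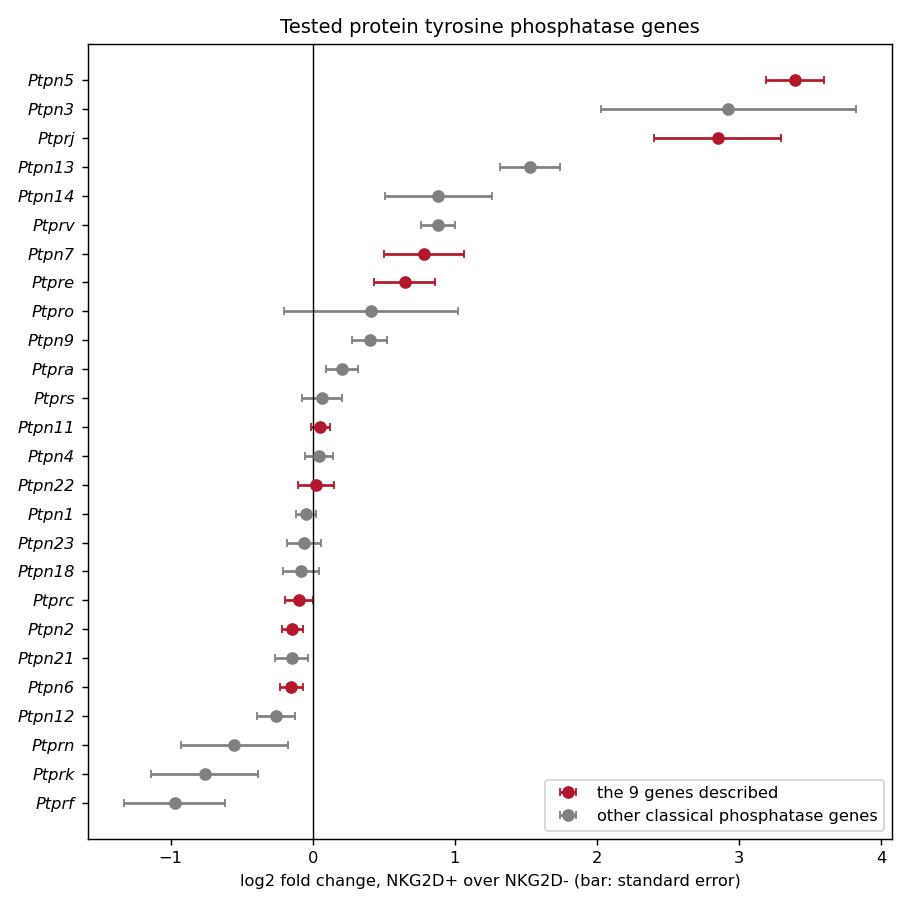
Log2 fold change of NKG2D+ over NKG2D- cells with its standard error for the 26 phosphatase genes tested, the 9 described genes in red and the 17 others in grey. Ptpn5 is at the top at 3.39, followed by Ptpn3 at 2.92 (SE 0.90) and Ptprj at 2.85, while most genes lie near 0.

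MAP kinase phosphatases of the dual-specificity family act on the same kinases as PTPN5 and PTPN7. Of 9 tested, 0 passed by edgeR, and DESeq2 called 2 and limma-voom 0, where DESeq2 called 1442 and limma-voom 83 of all genes. At an unadjusted p under 0.05 by edgeR there were 3 of the 9, beside 2731 of all 12951 genes tested. The smallest p was that of Dusp5, which acts on nuclear ERK, at 30.4 ± 2.61 CPM in NKG2D+ cells and 20.5 ± 2.01 CPM in NKG2D- cells (SD, n = 3 each, log2 fold change 0.57, adjusted p = 0.0516 by edgeR). It passed without NKG2D+ library 1 (adjusted p = 0.0452 by edgeR) and without NKG2D+ library 2 (0.0410).

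Among known substrates of PTPN5 and PTPN7, 1 of 8 tested genes rose and 0 fell, where 1.65% of all genes tested rose and 0.363% fell. At an unadjusted p under 0.05 by edgeR there was 1 of the 8, beside 2731 of all 12951 genes tested. Mapk3, which encodes ERK1, stood at 76.7, 62.3 and 60.4 CPM in libraries 1, 2 and 3 of NKG2D+ cells, against 43.4, 46.6 and 42.5 CPM in NKG2D- libraries 1, 2 and 3. Mapk3 had a log2 fold change of 0.59 (SE 0.11, adjusted p = 0.0457 by edgeR, and 0.0860 with the mouse as a block). Without NKG2D+ library 3 the adjusted p was 0.109, and without NKG2D- libraries 1, 2 and 3 it was 0.216, 0.142 and 0.231. It was 0.0668 without both libraries of mouse 2 and 0.554 without those of mouse 3.

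Of 13 tested kinases, adaptors and ligases around CD45 and PTPN22, 0 passed by edgeR, with 6 at an unadjusted p under 0.05, beside the 2731 of 12951 over all genes. DESeq2 called 3 of the 13, beside its 1442 over all genes, and limma-voom 0. The smallest p was that of the kinase gene Src, at 33.8, 6.30 and 18.8 CPM in libraries 1, 2 and 3 of NKG2D+ cells, against 2.34, 2.65 and 1.84 CPM in NKG2D- libraries 1, 2 and 3. Its log2 fold change was 3.11 (SE 0.59, adjusted p = 0.0541 by edgeR). It passed by edgeR without NKG2D+ library 1 (log2 fold change 2.46, adjusted p = 0.0479) and without NKG2D+ library 2 (log2 fold change 3.53, adjusted p = 0.00219). Over all alternatives run the adjusted p of Src lay between 0.00012 and 0.611. Lck, the main substrate of CD45 and named after its values were seen, averaged 1023 ± 29.9 CPM in NKG2D+ cells and 1043 ± 64.1 CPM in NKG2D- cells (SD, n = 3 each).

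Of 20 tested receptors and adaptors that recruit SHP-1 or SHP-2, 2 rose and 1 fell, where 1.65% of all genes tested rose and 0.363% fell. At an unadjusted p under 0.05 by edgeR there were 9 of the 20, beside 2731 of all 12951 genes tested. The median log2 fold change was 0.36, and -0.014 over all genes tested. Klrc1, the gene of the inhibitory receptor subunit NKG2A, stood at 58.1, 80.1 and 82.1 CPM in libraries 1, 2 and 3 of NKG2D+ cells, against 9.27, 14.3 and 13.8 CPM in NKG2D- libraries 1, 2 and 3 (log2 fold change 2.56, adjusted p = 0.00714 by edgeR). Cd244, which encodes 2B4, stood at 41.4, 6.86 and 14.7 CPM in libraries 1, 2 and 3 of NKG2D+ cells, against 1.23, 0.406 and 0.405 CPM in NKG2D- libraries 1, 2 and 3 (log2 fold change 5.01, 4.06 without NKG2D+ library 1 and 5.68 without NKG2D- library 1, adjusted p = 0.0404 by edgeR). Pecam1, an adhesion receptor with inhibitory motifs, was the one that fell, at 48.8, 51.0 and 47.7 CPM in libraries 1, 2 and 3 of NKG2D+ cells, against 67.4, 68.8 and 68.1 CPM in NKG2D- libraries 1, 2 and 3. Its log2 fold change was -0.47 (SE 0.062, adjusted p = 0.0240 by edgeR, and 0.0537 with the block). Klrc1 belongs to a family of related genes, and sequence shared with them was not measured. Its adjusted p was 0.0599 by edgeR without NKG2D- library 3 and 0.246 without both libraries of mouse 3. Without NKG2D+ library 3 the adjusted p was 0.109 for Cd244 and for Pecam1. Without NKG2D- libraries 1, 2 and 3 it was 0.157, 0.152 and 0.217 for Cd244 and 0.120, 0.118 and 0.158 for Pecam1. Without both libraries of mouse 3 it was 0.554 for Cd244 and 0.557 for Pecam1, and without those of mouse 2 it was 0.0585 for Pecam1. The list also holds B-cell receptors such as Cd22, named after its values were seen, which stood at 185 ± 32.8 CPM in NKG2D+ cells and 95.3 ± 32.4 CPM in NKG2D- cells (SD, n = 3 each), beside the higher B-cell marker sums given above.

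Of 7 tested JAK and STAT substrates of PTPN2, 0 passed by edgeR, with 0 at an unadjusted p under 0.05, and DESeq2 and limma-voom called 0. The smallest p was that of Stat5b, at 146 ± 0.248 CPM in NKG2D+ cells and 160 ± 4.59 CPM in NKG2D- cells (SD, n = 3 each, log2 fold change -0.13, adjusted p = 0.255 by edgeR).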

How the data were processed

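The authors deposited unnormalised counts of reads for each gene symbol and library. The submitters' processing notes name CASAVA 1.8.2, TopHat2 2.0.4 and the genome mm9; the sources used here do not give the counting program, annotation or strand setting. The 5 summary counts that name no gene were left out, of which multi-mapped reads were 19.7% to 26.2%, reads in no gene 14.0% to 15.9% and ambiguous reads 0.715% to 0.836% of the total. Counts were tested in R 4.3.3 with edgeR 4.0.16 (TMM, filterByExpr at a minimum count of 10 and total of 15, robust quasi-likelihood F-test in legacy mode, group as the only term). P-values were Benjamini-Hochberg adjusted over the 12951 genes tested, with a threshold of 0.05. DESeq2 1.42.0 and limma 3.58.1 served as alternatives, and the scripts were tested on simulated counts. CPM use TMM-scaled library sizes, and the SE is the log2 fold change over the square root of F. Log2 CPM for the correlation with Ptpn5 had a pseudocount of 0.5 added. Lengths, 50-base matches and the signature come from GENCODE M21 (GRCm38), not the build of the counts, so no coordinates are given. Libraries with the same number were treated as coming from the same mouse, since the series description has 3 mice sorted into both populations; deviations from group means correlated within each pair (r = 0.25, 0.20 and 0.38 across genes). No 2 libraries of a group were copies (chi-square over genes at least 40.7 per degree of freedom). Named genes are the 9 members, Klrk1, Cd44, Cxcr3, the CD8 T-cell markers and the 5 genes most like Ptpn5. Up to 4 called genes of each other list, or that with the smallest p, are named too. Others are marked. Members and lists were chosen with earlier results of these data known. A gene of the listed substrates is not reported here.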

Additional observations from a re-analysis of the deposited data

How the results depend on the processing

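The log2 fold change of Ptpn5 moved by less than the spread between replicates under every alternative run, at 3.36 to 3.47 with other scalings, tests, filters or the block and 3.32 to 3.51 with libraries left out. That of Ptprj ran from 2.19 to 3.44, Ptpn7 from 0.39 to 1.03 and Ptpre from 0.44 to 0.86. For Ptpn2 it ran from -0.18 to -0.062 and for Ptpn6 from -0.21 to -0.067, both nearest 0 with library totals. Counts of calls depended on the setting, and the cause was not tested. Over all genes edgeR called 261, limma-voom 83, DESeq2 1442 and edgeR with the mouse as a replicate block 68. With 1 library or both libraries of a mouse left out it called 0 (971 at an unadjusted p under 0.05, without mouse 3) to 1312 (without NKG2D+ library 2). For the other receptor-type phosphatases the block gave 0, and 0 to 1 was called with libraries left out. For the other non-receptor phosphatases DESeq2 gave 2, limma-voom 0 and the block 0, and 0 to 2 with libraries left out. For the MAP kinase phosphatases library totals gave 1, DESeq2 2 and no filter 1, and 0 to 2 with libraries left out. For the substrates of PTPN5 and PTPN7 limma-voom and the block gave 0, and 0 to 1 with libraries left out. For the genes around CD45 and PTPN22 DESeq2 gave 3, and 0 to 1 with libraries left out. For the SHP-1 and SHP-2 docking genes DESeq2 gave 7, and 0 to 5 with libraries left out. Under the block Ptprv, Ptpn13, Mapk3 and Pecam1 no longer passed. Ptprj and Arhgap11a no longer passed either, and of the other genes named by the rule none changed its side of the threshold. Ptprj is in the set chosen on this contrast, and Arhgap11a was picked for its likeness to Ptpn5 over the same libraries. Their calls are therefore no test under any setting. Depth limits Ptpn5 in NKG2D- libraries, which rests on 13 to 25 counts each.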
